A study of Mus musculus with 20 samples.

Results

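The fibrillar and microfibrillar collagens of the fetal mouse heart were followed over a dose series of TCDD (2,3,7,8-tetrachlorodibenzo-p-dioxin), a dioxin that binds the aryl hydrocarbon receptor (AhR). They are 8 genes: Col1a1, Col1a2, Col3a1, Col5a1 and Col5a2, whose chains build fibrils, and Col6a1, Col6a2 and Col6a3, whose chains build microfibrils. Every probe set that the array's annotation gives to these symbols was taken, which made 14 of 12422 probe sets, and all 14 were among the 8097 bright enough to be tested. Of the 8 genes, 5 had more than 1 probe set.

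The hearts came from dams given TCDD in corn oil at 1.5, 3 or 6 µg/kg, with 4 arrays a dose, or corn oil alone, with 8 control arrays. All groups were dosed by oral gavage, on gestation day 14.5 (the day on the label of 1 array at 1.5 µg/kg was written in another form and was not read), and whole hearts were collected on gestation day 17.5. Strain, fetal sex and the number of hearts or litters behind an array are not given in the sources used here, so p-values measure the spread between arrays, which may be technical in part. RNA was hybridised to Affymetrix MG-U74Av2 arrays and is reported as MAS5 signal, a brightness with no absolute unit, so that levels are compared between arrays for 1 probe set and never between probe sets.

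Collagens are made as procollagen chains that wind into a triple helix. Type I joins a pair of Col1a1 chains to a Col1a2 chain, type III is built of Col3a1 alone, and type V, mostly of Col5a1 and Col5a2, starts fibrils and limits their width. Type VI joins a Col6a1, a Col6a2 and a Col6a3 chain into beaded microfibrils around cells. In the fetal heart these genes are expressed chiefly by epicardium-derived fibroblasts, valve mesenchyme and the walls of the great vessels, and little by cardiomyocytes. In RNA from whole hearts, fewer cells of such a type and less RNA per cell cannot be told apart.

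The genes lie in 2 close pairs and 4 separate places on assembly GRCm38.p6. Col3a1 (chromosome 1, 45311538 to 45349706) and Col5a2 (chromosome 1, 45374331 to 45503282) are neighbours 24.6 kb apart. Col6a2 (chromosome 10, 76595756 to 76623630) and Col6a1 (chromosome 10, 76708792 to 76726044) are 85.2 kb apart with 0 protein-coding genes between them. Col6a3 lies further along chromosome 1 (90766860 to 90844001), Col5a1 on chromosome 2 (27886381 to 28039510), Col1a2 on chromosome 6 (4505618 to 4541543) and Col1a1 on chromosome 11 (94936224 to 94953042).

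Promoter sequence, up to 250 bases before a transcription start (206 for Col5a1 and 220 for Col6a3), was read from RefSeq (GRCm38.p6), whose table held an entry for 6 of the 8 genes. That of Col1a2 is shown for its CCAAT box and GC boxes, that of Col3a1 for its TATA box, and the others because they belong to the 2 linked type VI genes, whose probe sets are set side by side below. Each is written 5′ to 3′ on the strand of its gene, at chr6:4505368-4505617 (plus strand), chr1:45311288-45311537 (plus strand), chr10:76726045-76726294 (minus strand) and chr10:76623631-76623880 (minus strand).
Col1a2: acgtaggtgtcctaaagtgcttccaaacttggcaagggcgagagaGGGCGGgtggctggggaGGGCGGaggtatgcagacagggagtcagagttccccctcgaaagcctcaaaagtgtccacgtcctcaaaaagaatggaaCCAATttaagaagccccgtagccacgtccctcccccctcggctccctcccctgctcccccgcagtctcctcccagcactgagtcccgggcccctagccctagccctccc
Col3a1: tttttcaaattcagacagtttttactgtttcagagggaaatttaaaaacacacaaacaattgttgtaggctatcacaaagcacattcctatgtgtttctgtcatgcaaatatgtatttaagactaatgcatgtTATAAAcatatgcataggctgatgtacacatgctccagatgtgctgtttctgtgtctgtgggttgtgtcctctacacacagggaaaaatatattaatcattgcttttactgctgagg
Col6a1: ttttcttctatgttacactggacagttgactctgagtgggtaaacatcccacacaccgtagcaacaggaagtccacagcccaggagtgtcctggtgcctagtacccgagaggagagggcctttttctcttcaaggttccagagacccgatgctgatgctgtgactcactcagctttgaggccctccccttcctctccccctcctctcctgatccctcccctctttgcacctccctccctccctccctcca
Col6a2: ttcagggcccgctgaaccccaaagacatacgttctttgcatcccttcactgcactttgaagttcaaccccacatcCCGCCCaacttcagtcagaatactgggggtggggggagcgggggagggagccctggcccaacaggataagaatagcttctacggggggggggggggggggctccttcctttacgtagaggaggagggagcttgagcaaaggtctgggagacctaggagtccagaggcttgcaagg

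The capitals mark exact matches, on either strand, of 4 short motifs: the CCAAT box (CCAAT or ATTGG), the GC box (GGGCGG or CCGCCC), the TATA box (TATAAA or TTTATA) and the core of the site that AhR binds (GCGTG or CACGC). The CCAAT box was found for Col1a2, the GC box for Col1a2, Col5a1 and Col6a2, and the TATA box for Col3a1. Over the 32851 windows of the whole table these motifs were present in 33.8%, 32.7% and 12.4%. The AhR core was present in 28.2% of all windows and, of the 6 genes, before a second, inner start of Col6a2, 168 bases from it, shown here with 30 bases at chr10:76623555-76623584 (minus strand).
Col6a2 inner start: tccaaccctgctGCGTGtcctggccactcc
A match says only that these letters are present.

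The collagens were among the brighter probe sets of the array. The brightest probe set of each gene lay between the 93.0th percentile (Col5a1) and the 99.5th percentile (Col1a1) of the mean signals of the array, and the dimmest of all 14 (162459_f_at of Col6a1) at the 78.4th. In control hearts Col1a1 averaged 12456 ± 2017 and Col5a1 1901 ± 223 (SD, n = 8; brightest probe sets). The plot of chain signals by dose shows each array.

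**Figure D1:**
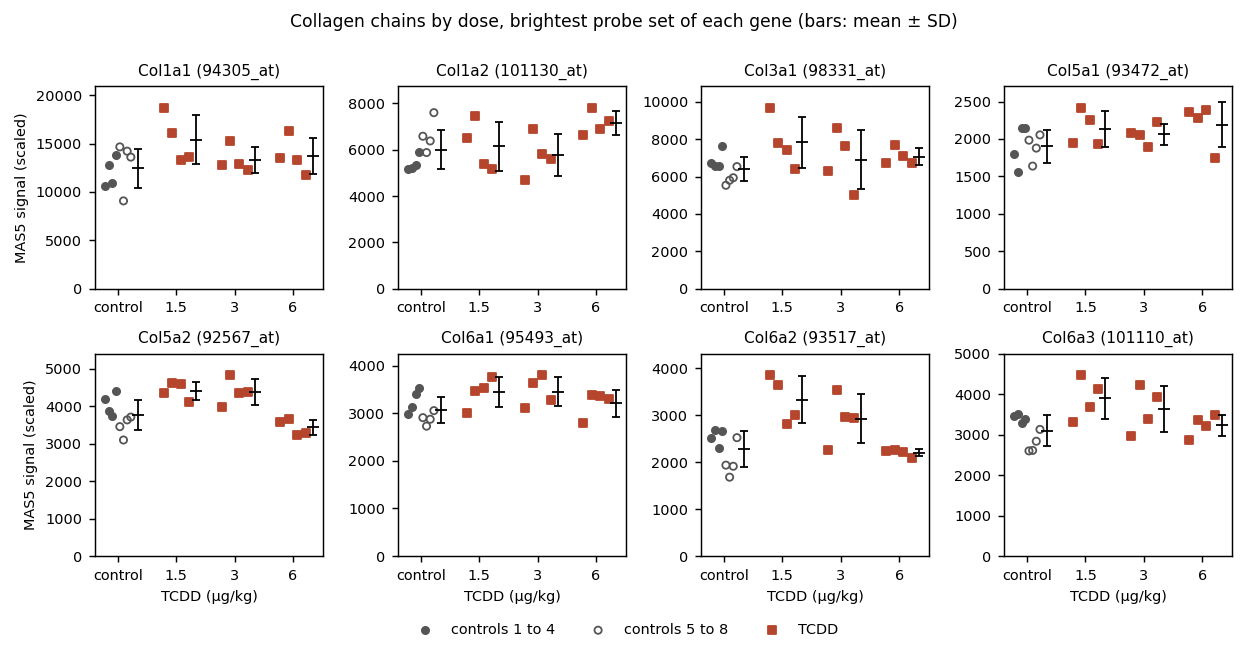
MAS5 signal of the brightest probe set of each of the 8 collagen genes against TCDD dose in µg/kg, with 1 point an array (filled circles controls 1 to 4, open circles controls 5 to 8, squares TCDD) and bars for the mean ± SD. The 4 arrays of Col6a2 at 1.5 µg/kg (2805 to 3845) lie above all 8 controls (1678 to 2671), and those at 6 µg/kg (2088 to 2248) lie within the control range.

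No collagen probe set differed from controls after correction at any dose. With limma on log2(signal + 32) and Benjamini-Hochberg adjustment over all 8097 probe sets, 0 of 14 passed an adjusted p of 0.05 at 1.5, 3 or 6 µg/kg, where 0.21%, 0.0247% and 0.0741% of all probe sets did. Before adjustment, p was under 0.05 for 8 of 14 at 1.5 µg/kg, 4 of 14 at 3 µg/kg and 3 of 14 at 6 µg/kg, all of them higher than in controls, beside 7.45%, 3.36% and 4.82% of all probe sets that were higher by the same measure. The direction was shared by most members: 13, 12 and 11 of the 14 lay above controls, against 51.9%, 51.2% and 49.7% of all probe sets. For the mean of the 3 doses 0 of 14 passed (0.0494% of all), 7 of 14 had an unadjusted p under 0.05, all higher (5.47% of all), and 14 of 14 lay above controls (50.4% of all). Over the 8 genes, by their brightest probe sets, the median log2 difference was 0.26 at 1.5 µg/kg (8 of 8 above controls), 0.14 at 3 µg/kg (7 of 8) and 0.10 at 6 µg/kg (6 of 8), while over all probe sets it was 0.01, 0.00 and −0.00. All 3 doses were set against the same 8 controls, so the counts are not independent of one another. The 14 probe sets stand for 8 genes that varied together within groups (below), so the members are not independent observations either.

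**Figure D2:**
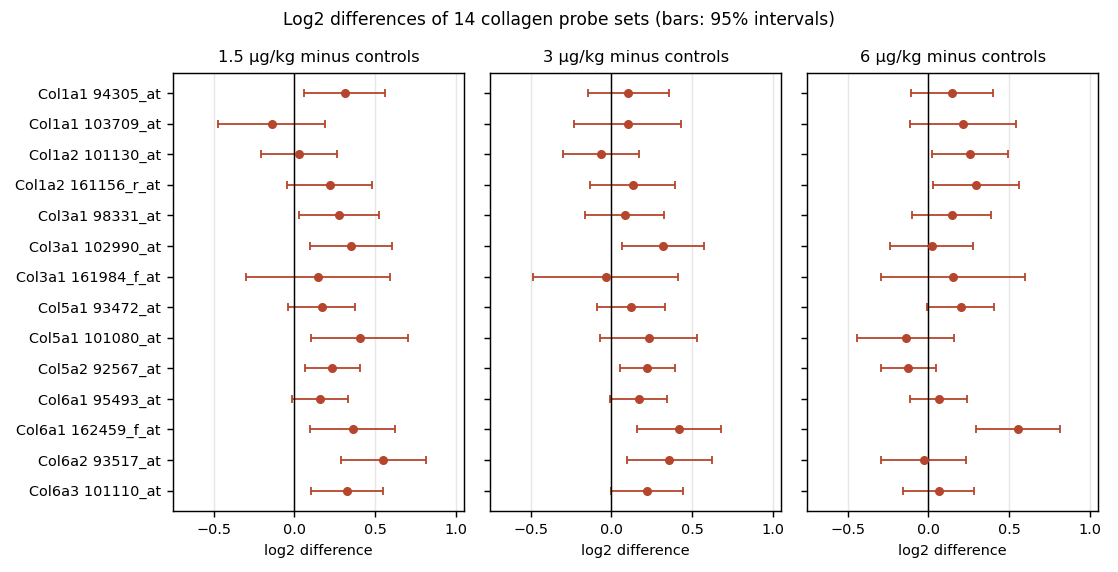
Log2 difference from controls of the 14 collagen probe sets at 1.5, 3 and 6 µg/kg TCDD, in 1 panel a dose; points are limma estimates and bars their 95% intervals, before adjustment. Col6a2 is the farthest to the right at 1.5 µg/kg (0.55), and 162459_f_at of Col6a1 at 6 µg/kg (0.55).

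Type VI collagen held the members farthest from controls. Col6a2 had signals of 3845, 3639, 2805 and 3011 at 1.5 µg/kg, of 2258, 3524, 2961 and 2943 at 3 µg/kg and of 2242, 2248, 2209 and 2088 at 6 µg/kg, while the 8 controls ran from 1678 through a median of 2403 to 2671. All arrays at 1.5 µg/kg and 3 of 4 at 3 µg/kg were above every control, and all at 6 µg/kg were inside the control range. The log2 difference was 0.55 ± 0.13 (SE) at 1.5 µg/kg (adjusted p = 0.0793), 0.36 ± 0.13 at 3 µg/kg (adjusted p = 0.707) and −0.03 ± 0.13 at 6 µg/kg (adjusted p = 0.958), all by limma. By unadjusted p, Col6a2 ranked 26th of 8097 at 1.5 µg/kg. The array with the highest signal, array 1 of 1.5 µg/kg, was also the highest for Col1a1 and Col3a1 (18689 and 9682).

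Col6a1 has 2 probe sets, and they differed in how far they lay from controls. Signals of 162459_f_at were 798, 763, 703 and 782 at 1.5 µg/kg, 673, 995, 766 and 770 at 3 µg/kg and 696, 1153, 907 and 800 at 6 µg/kg, against controls of 475 to 700 with a median of 576. Every array at 1.5 µg/kg lay above all 8 controls, which held at that dose for 2 of 14 collagen probe sets (the other was Col6a2) and 1.06% of all, and so did 3 of 4 at each of the other doses. The log2 difference was 0.36, 0.42 and 0.55 (adjusted p = 0.232, 0.643 and 0.151), and for the mean of the 3 doses 0.44 ± 0.09 (adjusted p = 0.0993). The brighter 95493_at ran from 2792 to 3795 over the 12 TCDD arrays and from 2728 to 3526 over controls, with log2 differences of 0.16, 0.17 and 0.06. An f in the name of a probe set marks probes shared within a gene family, so 162459_f_at may hold signal from related sequences.

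Col6a3, the long chain of type VI collagen, had signals of 3316, 4466, 3672 and 4121 at 1.5 µg/kg, 2964, 4222, 3394 and 3939 at 3 µg/kg and 2865, 3352, 3225 and 3480 at 6 µg/kg. Controls ran from 2599 to 3520 with a median of 3205. Here 3 of 4 arrays at 1.5 µg/kg and 2 of 4 at 3 µg/kg lay above every control, and the groups overlapped at each dose. Log2 differences were 0.32 ± 0.11, 0.22 ± 0.11 and 0.06 ± 0.11, none past the threshold (adjusted p = 0.209, 0.859 and 0.867).

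Of type V collagen, Col5a2 and 1 probe set of Col5a1 had their highest mean at 1.5 µg/kg and their lowest at 6 µg/kg. Col5a2 had signals of 4348, 4612, 4598 and 4104 at 1.5 µg/kg, 3983, 4824, 4349 and 4382 at 3 µg/kg and 3566, 3653, 3226 and 3288 at 6 µg/kg, against controls of 3098 to 4414 with a median of 3718. Its arrays at 6 µg/kg all lay below the control mean of 3763. Log2 differences from controls were 0.23, 0.22 and −0.13 (adjusted p = 0.232, 0.728 and 0.643). Col5a1 by 101080_at had 1755, 1533, 1431 and 1378 at 1.5 µg/kg, 1139, 1531, 1479 and 1260 at 3 µg/kg and 1090, 1112, 1101 and 844 at 6 µg/kg, with controls from 813 to 1546 and a median of 1147. Its log2 differences were 0.40, 0.23 and −0.14 (adjusted p = 0.245, 0.917 and 0.781), while those of the brighter probe set of the same gene, 93472_at, were 0.17, 0.12 and 0.20.

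Types I and III, the bulk of the fibrils, overlapped the controls in every probe set at every dose. Col1a1 by 94305_at had signals of 18689, 16126, 13263 and 13606 at 1.5 µg/kg, 12749, 15230, 12894 and 12237 at 3 µg/kg and 13467, 16261, 13318 and 11795 at 6 µg/kg, against 9072 to 14658 in controls with a median of 13166. Array 1 of 1.5 µg/kg was the highest of all 20. The log2 differences were 0.31, 0.10 and 0.15 (adjusted p = 0.295, 0.963 and 0.725). With the 3′ to 5′ ratio of the control probe sets, a measure of RNA quality, as a covariate, the difference at 1.5 µg/kg was 0.54 and passed (adjusted p = 0.0460), the only 1 of 14, beside 0.519% of all probe sets. The lowest such ratios of all 20 arrays were at this dose (values below). The second probe set of Col1a1, 103709_at, was at −0.14, 0.10 and 0.21, and its widest spread was at 6 µg/kg (2176 to 4797). At 1.5 µg/kg 103709_at lay below controls in all 12 alternative settings (log2 −0.44 to −0.099), and reached 0.021 with 1 array left out. With the ratio as a covariate its mean of the doses was −0.080. Col1a2 by 101130_at was at 0.03, −0.06 and 0.26, and by 161156_r_at at 0.22, 0.13 and 0.29. At 6 µg/kg the 101130_at signals were 6646, 7806, 6911 and 7242, of which 3 lay below the highest control (7601, with controls from 5170 and a median of 5889). Col3a1 by 98331_at was at 0.28, 0.08 and 0.14, by 102990_at at 0.35, 0.32 and 0.02, and by 161984_f_at at 0.15, −0.04 and 0.15.

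The order of the 4 groups differed between genes and between probe sets of a gene. The mean signal was highest at 1.5 µg/kg for 7 of 14 probe sets, at 3 µg/kg for 1 and at 6 µg/kg for 6, and controls were the highest group for 0. The lowest group was 1.5 µg/kg for 1, 3 µg/kg for 2, 6 µg/kg for 3 and controls for 8. Neighbouring doses did not differ past the threshold for any of them: between 3 and 1.5 µg/kg 0 of 14 passed (0% of all probe sets) and 0 had an unadjusted p under 0.05 (2.79% of all), and between 6 and 3 µg/kg 0 passed (0.0371% of all), with 5 at an unadjusted p under 0.05 (11.6% of all), of which 4 were lower at 6 µg/kg. A linear trend over all 20 arrays called 0 of 14 (0.0618% of all; 2 at an unadjusted p under 0.05, beside 7.22% of all), and a joint F test of the doses 0 of 14 (0.185% of all; 6 at an unadjusted p under 0.05, beside 12.5% of all).

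Between the highest and the lowest dose, Col6a2, Col5a2 and Col5a1 (101080_at) were lower at 6 µg/kg. Each had all 4 arrays at 6 µg/kg below all 4 at 1.5 µg/kg, which held for 3 of 14 collagen probe sets and 5.24% of all probe sets. The log2 differences of 6 minus 1.5 µg/kg were −0.58 ± 0.15, −0.36 ± 0.10 and −0.55 ± 0.17, and in the fit of all 20 arrays none of them passed (adjusted p = 0.0677, 0.0814 and 0.119; 0 of 14 collagens and 0.346% of all probe sets called). When the same differences were fitted on the 12 TCDD arrays alone, an alternative added after the data were seen, all 3 fell at 6 µg/kg (adjusted p = 0.0371, 0.0457 and 0.0407; 1.19% of all probe sets were called lower). The linear trend within those 12 arrays also fell for the same 3 probe sets, by 0.13, 0.09 and 0.12 log2 units per µg/kg. Their adjusted p by limma was 0.0208, 0.0267 and 0.0220, where 1.83% of all probe sets were called lower. The brighter probe set of Col5a1, 93472_at, did not fall in these 12 arrays. It was at 0.03 for 6 against 1.5 µg/kg (adjusted p = 0.919 by limma). Its trend was 0.0097 per µg/kg (adjusted p = 0.869 by limma). The calls of these 3 probe sets, in both tests, changed when single arrays were left out. Leaving out 1 array in turn left 0 to 3 of the 3 calls for 6 against 1.5 µg/kg, with 0 left when the array removed was 1 or 2 at 1.5 µg/kg, 3 at 3 µg/kg, or 1, 2 or 3 at 6 µg/kg, and 1 left when it was 3 at 1.5 µg/kg or 4 at 6 µg/kg. For the trend it left 1 to 3 calls, with 1 left when the array removed was 1 at 1.5 µg/kg, or 1, 2 or 3 at 6 µg/kg. Array 3 at 3 µg/kg is in neither group of 6 against 1.5 µg/kg, and without it those 3 differences were unchanged. Their adjusted p by limma was then 0.0562, 0.0720 and 0.0561 for Col6a2, Col5a2 and Col5a1 (101080_at). The values of cell-type markers and of a measure of RNA quality at these doses were as follows. At 6 against 1.5 µg/kg, 0 of 6 smooth muscle markers, 4 of 14 markers of fibroblasts and epicardium and 14 of 14 cardiomyocyte markers lay higher (median log2 −0.43, −0.17 and 0.11, against 0.00 over all probe sets), and 0 of each list were called. The summed smooth muscle signal ran from 9340 to 10206 at 6 µg/kg and from 9890 to 11826 at 1.5 µg/kg. The part of these markers in the collagen differences was not tested. The log2 ratio of 3′ to 5′ signal of the control probe sets, which rises as RNA degrades, was 0.16, 0.11, 0.12 and 0.057 at 6 µg/kg and 0.073, −0.016, −0.024 and −0.034 at 1.5 µg/kg. The last 3 of these were the lowest of all 20 arrays. With that ratio as a covariate in the fit of all arrays, Col6a2, Col5a2 and Col5a1 (101080_at) were at −0.67, −0.37 and −0.57 (adjusted p = 0.0922, 0.138 and 0.190). In that fit limma called 0 of 14 collagens and 0% of all probe sets, with 6 of 14 and 14.1% at an unadjusted p under 0.05. In the 12 TCDD arrays alone its part was not tested. With controls 1 to 4 alone or controls 5 to 8 alone in the fit, the same 3 of 14 were called, where 1.58% and 2.16% of all probe sets were called. The controls do not enter these differences, which stayed at −0.58, −0.36 and −0.55 in each of these fits. They bear only on the estimate of the spread, so these calls are no further observations of the fall.

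No test of 6 against 1.5 µg/kg called the other type VI genes: Col6a3 was at −0.26 (adjusted p = 0.307) and the Col6a1 probe sets at −0.10 and 0.19.

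**Figure D3:**
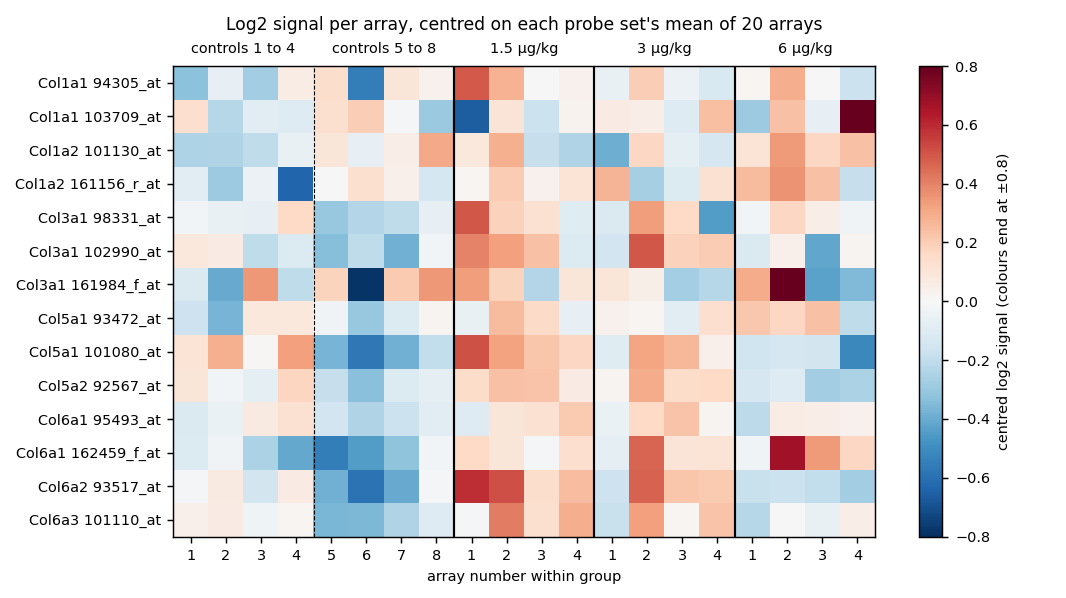
Log2 signal of the 14 collagen probe sets (rows) on each of the 20 arrays (columns, by group), centred on the mean of each row; red is above and blue below it, and colours end at ±0.8. Array 2 of 1.5 µg/kg and array 2 of 3 µg/kg are above the mean in all 8 brightest probe sets, and control 6 is below it in all 8.

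The 8 controls were not uniform for these genes. The study's design text speaks of 4 replicates a dose while the labels number 8 controls, and controls 1 to 4 differed from controls 5 to 8 in 1.57% of all probe sets. Of the collagens 1 of 14 passed: Col5a1 by 101080_at, at 1322, 1495, 1230 and 1546 in controls 1 to 4 and at 937, 813, 930 and 1063 in controls 5 to 8, a log2 difference of 0.56 ± 0.12 (adjusted p = 0.0209). That call was lost without control 2, 5 or 7 (adjusted p = 0.0843, 0.0611 and 0.0668). Col6a2, Col6a3 and Col5a2 were also higher in controls 1 to 4, by 0.34, 0.29 and 0.22, and Col1a2 (101130_at) was at −0.29, none of them past the threshold. For 4 of 14 probe sets every array of controls 1 to 4 lay above every array of controls 5 to 8, as for 4.3% of all probe sets. What the 2 sets of controls stand for is not given in the sources used here.

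The choice of controls moved the differences at every dose and the calls at 1.5 µg/kg. The median log2 difference of the 8 chains at 1.5, 3 and 6 µg/kg was 0.17, 0.10 and 0.0092 against controls 1 to 4 alone, and 0.31, 0.22 and 0.14 against controls 5 to 8 alone. At 1.5 µg/kg against controls 5 to 8 alone, 4 of 14 passed, beside 1.89% of all probe sets: Col6a2 rose by 0.72 (adjusted p = 0.0098), Col5a1 (101080_at) by 0.69 (0.0067), Col6a3 by 0.47 (0.0424) and Col5a2 by 0.34 (0.0366). Against controls 1 to 4 alone, 0 of 14 passed by limma, beside 0.0371% of all probe sets. Single arrays bore on 1 call at this dose: without array 3 of 1.5 µg/kg, Col6a2 passed against all remaining controls (0.63, adjusted p = 0.0402; 0.63% of all probe sets called).

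Most pairs of chains had a positive correlation within groups, and 1 pair passed the test. With the mean of each group taken out, the brightest probe sets of the 8 genes gave 28 pairs over 20 arrays, of which 26 had a Pearson r above 0, with a median of 0.32. Over all 18595851 pairs of tested genes the median was 0.0016, and 4.84% reached 0.5, as 25% of the collagen pairs did. After adjustment over the 28 pairs, 1 passed by Pearson's r: Col5a2 with Col6a2 (r = 0.75, adjusted permutation p = 0.0185; Spearman rho = 0.68, adjusted permutation p = 0.0342), with r = 0.64 after leaving out the 2 arrays farthest from the median. It was 0.86 within the 8 controls and 0.59 within the 12 TCDD arrays, and 0.63 where controls 1 to 4 and 5 to 8 were centred apart. The number of called pairs was 0 without control 4, 5 or 6 or array 2 of 3 µg/kg, 2 when the array removed was 4 at 1.5 µg/kg, 1 or 3 at 3 µg/kg, or 1 at 6 µg/kg, and 4 when it was 1 at 1.5 µg/kg or 4 at 3 µg/kg. It was 0 without the 4 arrays of the highest β-actin 3′ to middle ratio and 7 in the 8 controls alone. By Spearman's rho 5 of 28 passed. Of these, Col3a1 with Col6a2 was the closest pair (rho = 0.81, adjusted permutation p = 0.00644; r = 0.63, adjusted permutation p = 0.0523).

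Within type VI, Col6a2 with Col6a3 had r = 0.67 (adjusted permutation p = 0.0523), Col6a1 with Col6a3 r = 0.65 (0.0523) and the linked pair Col6a1 with Col6a2 r = 0.36 (0.370). The partners of type I collagen, Col1a1 and Col1a2, had r = 0.59 (adjusted permutation p = 0.0552; rho = 0.64, adjusted permutation p = 0.0425). The chromosomal neighbours Col3a1 and Col5a2 had r = 0.55 (adjusted permutation p = 0.0523; rho = 0.62, adjusted permutation p = 0.0492), and Col5a2 with Col6a3 r = 0.63 (adjusted permutation p = 0.0523; rho = 0.68, adjusted permutation p = 0.0342). Some pairs differed between controls and TCDD arrays: Col1a2 with Col6a2 was at −0.23 in the 8 controls and 0.86 in the 12 TCDD arrays, and Col3a1 with Col6a3 at 0.85 in controls and −0.10 in TCDD arrays. Those differences were not tested. Over all arrays with the control sets centred apart, the first pair was at 0.85 and the second at −0.016.

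**Figure D4:**
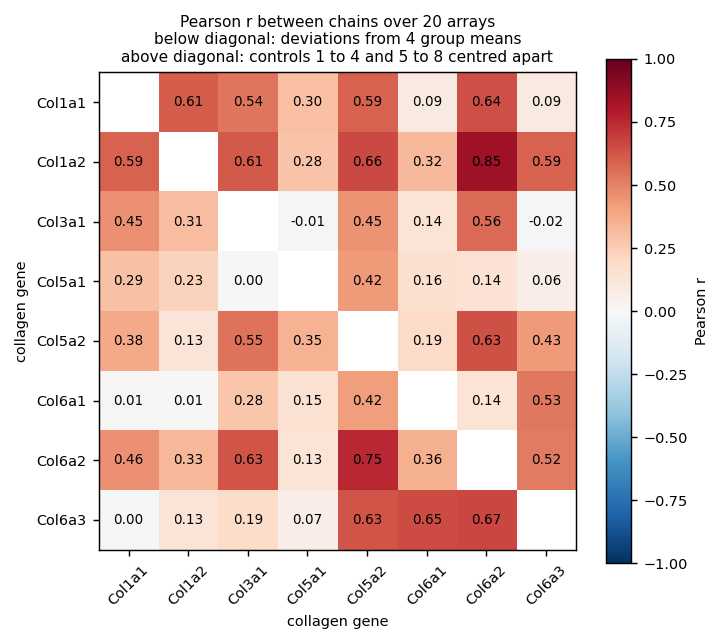
Pearson r between the 8 collagen genes over 20 arrays, by brightest probe set, as coloured cells with values. Below the diagonal the 4 group means are taken out, and above it controls 1 to 4 and 5 to 8 are centred apart; Col5a2 with Col6a2 is the highest below (0.75) and Col1a2 with Col6a2 above (0.85).

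Probe sets of 1 gene followed each other only in part. Of 7 such pairs, 0 passed a permutation test of r after adjustment over the 7, and 1 (98331_at with 102990_at of Col3a1) had an unadjusted permutation p under 0.05 (0.0324). Col1a1's pair was at r = −0.42, Col1a2's at −0.10, Col5a1's at 0.18, Col6a1's at 0.36 and Col3a1's at 0.56, 0.19 and 0.09. The genes nearest to the mean of the 8 chains among 6091 others, over 20 arrays, were Fgfr1 (r = 0.85), Grik5 (0.84), Wdr92 (0.81), App (0.81), Lipa (0.80), Wdr6 (0.79), Tie1 (0.79), Vsnl1 (0.78), Gtf3c2 (0.76) and Anpep (0.75), and those at the other end were Ghitm (−0.79), Gga2 (−0.73) and Npy (−0.70). They were picked for these values, and the arrays share their labelling and scaling.

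Spread within groups was near that of all tested probe sets and above that of probe sets of like brightness. The median within-group SD of the 14 probe sets was 0.21 on the log2 scale, beside 0.23 for all tested probe sets and 0.18 for the 2697 at least as bright as the dimmest collagen. It was smallest for Col5a2 and Col6a1 (95493_at), both at 0.13, and largest for Col3a1 by 161984_f_at at 0.40.

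Of 16 tested genes that fold, process or crosslink collagen, 0 were called against controls, and 11, 10 and 8 lay above controls at 1.5, 3 and 6 µg/kg. Among them Lox, the lysyl oxidase that crosslinks fibrils, was at 0.38, 0.29 and 0.10, and Pcolce, which speeds removal of the procollagen C-propeptide, at 0.09, 0.29 and 0.46. P3h3, a prolyl hydroxylase of collagen, fell at 6 against 1.5 µg/kg (log2 −0.71, adjusted p = 0.0255), where 0.346% of all probe sets were called. With the 3′ to 5′ ratio as a covariate, 0% of all probe sets were called in that comparison, so this call was lost. Fkbp9, a prolyl isomerase of the endoplasmic reticulum, was higher in controls 1 to 4 than in controls 5 to 8 (0.47, adjusted p = 0.0335).

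Of 13 other collagens tested, 0 were called against controls, with a median log2 difference of 0.03, 0.03 and 0.05. Col4a5, a chain of basement membrane collagen, fell at 6 against 1.5 µg/kg (−0.65, adjusted p = 0.0408; 0.346% of all probe sets called). That call was also lost with the 3′ to 5′ ratio as a covariate. Col7a1, the anchoring fibril collagen, was at −0.06, 0.40 and 0.20, and Col9a2, of cartilage fibrils, at 0.05, 0.04 and 0.28.

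Of 19 genes tested for proteins that bind or accompany fibrils, 15, 16 and 9 lay above controls, with medians of 0.13, 0.12 and −0.02, and 0 were called. Eln, the gene of elastin, was at 0.54, 0.37 and 0.07, Mfap2, of elastin-associated microfibrils, at 0.28, 0.30 and 0.18, and the small proteoglycan Bgn at 0.28, 0.39 and −0.04. Tnxb (tenascin X) and Fmod (fibromodulin) were higher in controls 1 to 4 than in 5 to 8, by 0.82 and 0.71 (adjusted p = 0.0335 and 0.0390).

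Of 4 collagen receptors tested, 3, 3 and 2 lay above controls, with medians of 0.37, 0.08 and −0.06. Of 10 genes of collagen breakdown and its inhibitors, 8, 6 and 8 did, with medians of 0.09, 0.03 and 0.08. In both lists 0 were called against controls. The receptor kinases Ddr1 and Ddr2 were at 0.42, 0.11 and −0.14 and at 0.49, 0.17 and 0.11, and the collagenolytic membrane protease Mmp14 at 0.39, 0.32 and 0.10. Of 20 regulators of collagen genes 0 were called against controls, where 12, 12 and 11 lay above. The growth factors Tgfb1 and Tgfb3 were at 0.58, 0.18 and 0.19 and at 0.49, 0.25 and 0.00, and Pdgfa was lower in controls 1 to 4 than in 5 to 8 (−0.73, adjusted p = 0.0074).

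Of 14 markers of cardiac fibroblasts and epicardium, 10, 12 and 7 lay above controls, with medians of 0.18, 0.23 and −0.00 and 0 called. Their summed signal ran from 7502 to 8741 at 1.5 µg/kg, 8390 to 10255 at 3 µg/kg and 7498 to 8899 at 6 µg/kg, against 6456 to 8612 in controls, and 0 of the 14 had a control median under 50. Twist1, a mesenchymal transcription factor, was at 0.59, 0.29 and 0.18, and Tcf21, which marks the epicardial lineage, at 0.21, 0.20 and 0.08. Of the 14 cardiomyocyte markers, 5, 1 and 11 lay above controls, with medians of −0.04, −0.09 and 0.08 and 0 called. Their sums overlapped (188125 to 253527, 204674 to 228934 and 229375 to 279738 over the doses, against 223834 to 252378 in controls), and 0 of these 14 had a control median under 50.

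Lung epithelial markers were present and varied widely between arrays of a group. Of 8 on the array 6 were tested, with 6, 6 and 4 above controls and 0 called, and 2 of 8 had a control median under 50. The sum of all 8 ran from 1219 to 4855, 1046 to 5587 and 1114 to 4726 over the doses, against 771 to 3546 in controls. Of 11 leukocyte markers tested, 11 lay above controls at each dose. The sum of all 13 on the array ran from 4170 to 4538, 4212 to 4854 and 4526 to 4946 over the doses, against 3170 to 3740 in controls. Of the 11 tested, Cd74, the invariant chain of antigen presentation, rose at 1.5 and 6 µg/kg (0.73 and 0.92, adjusted p = 0.0274 and 0.00285 by limma). Of 8 cartilage markers, which bear on fibrillar collagen, 4 had a median under 50 in every group, and the sums overlapped between groups (649 to 995 over the doses, against 413 to 921 in controls). The 4 that were tested had 3, 4 and 3 above controls, with median log2 differences of 0.34, 0.33 and 0.18 and 0 called. At 6 against 1.5 µg/kg 0 of these 4 lay higher (median −0.17). Their part in the collagen differences was not tested. Of 6 smooth muscle, 10 endothelial, 3 thymus, 5 liver and 6 erythroid markers tested, 0 were called against controls, and the endothelial Vwf was higher in controls 1 to 4 than in 5 to 8 (0.41, adjusted p = 0.0249). With the lung score as a covariate, 0 of 14 collagens were called in each comparison with controls, and the part of fibroblast or other cell numbers in the collagen differences was not tested.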

How the data were processed

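Each of 20 MG-U74Av2 arrays (Affymetrix) measured RNA of whole fetal hearts. The deposited intensity values are MAS5 signals, 1 per probe set and array, made by the authors with MAS5 per the submitters' processing notes (version not given in the sources used here); as deposited, the trimmed mean of each array was 500.28 to 500.341. Gene names come from the platform annotation: of 12422 probe sets that are no array controls, 10833 had 1 symbol, 396 several and 1193 none. Of the probe sets with 1 symbol, 10817 had a gene found in RefSeq.

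Signals were scaled to a trimmed mean of 500 (2% off each end), and log2(signal + 32) was tested. The 8097 probe sets at or above the 40th percentile of an array on at least 4 arrays were fitted with limma 3.58.1 in R 4.3.3 (lmFit, eBayes with intensity trend), all 20 arrays in 1 fit of 4 groups, 5 where the control sets were compared. P-values are two-sided and Benjamini-Hochberg adjusted over all 8097, at a threshold of 0.05. The number of arrays limits the precision. Correlations used the brightest probe set of a gene, deviations from group means, and 100000 permutations within groups. The fits were tested on simulated data.

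The collagen genes, the gene lists and the markers were chosen with earlier results of these data known. Named are all collagen probe sets; from each list, genes past the threshold in any comparison and the 3 of smallest p for the mean of the doses, of which the text gives a selection; and the genes nearest to the mean of the chains. The lists were other collagens, folding and crosslinking, fibril-associated proteins, receptors, breakdown, regulators, and markers of 10 cell types or tissues. Alternatives were the normalization, pseudocount, filter, controls, covariates, left-out arrays and the replicate number as a block. The replicate numbers did not pair arrays across groups: correlations of deviations between arrays of the same number ran from −0.181 to 0.0975.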

Additional observations from a re-analysis of the deposited data

Results flagged for a closer look

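In 3 of 56 groups of collagen signals, 1 array stood apart from the other arrays of its group by Dixon's test. Chance alone does this in about 1 group in 20. Col5a1 had array 4 of 6 µg/kg at 1751 by 93472_at, where the other 3 arrays were at 2275 to 2385, and at 844 by 101080_at, where the others were at 1090 to 1112. The same array had a high β-actin ratio of 3′ to middle probes (log2 1.02). Col6a1 by 95493_at had array 1 of 6 µg/kg at 2792, with the other 3 at 3309 to 3378. The causes were not tested.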

How the results depend on the processing

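The median log2 difference of the 8 chains stayed above 0 in all 12 alternatives, at 0.17 to 0.31, 0.10 to 0.22 and 0.01 to 0.14 for 1.5, 3 and 6 µg/kg and 0.09 to 0.22 for the mean of the doses. With 1 array left out it was 0.22 to 0.29, 0.12 to 0.18, 0.05 to 0.14 and 0.13 to 0.20. Calls of the 14 collagen probe sets against controls stayed at 0 in every alternative at 3 and 6 µg/kg and for the mean. At 1.5 µg/kg 4 were called against controls 5 to 8 alone (1.89% of all probe sets) and 1 (Col1a1 by 94305_at, 0.54, adjusted p = 0.0460; 0.519% of all) with the 3′ to 5′ ratio as a covariate. The other Col1a1 probe set, 103709_at, lay below controls at that dose in all 12 alternatives. The trend called 1 (Col5a1 by 101080_at) against controls 1 to 4 alone (2.04% of all) and 3 on the 12 TCDD arrays alone (2.7%), and the F test 3 against controls 5 to 8 alone (2.09%). Between doses 3 were called with controls 1 to 4 alone, with controls 5 to 8 alone and on the 12 TCDD arrays alone, where 1.58%, 2.16% and 1.68% of all probe sets were called (Col5a1, Col5a2 and Col6a2, lower at 6 than at 1.5 µg/kg). The call between control sets went to 0 (0.49, adjusted p = 0.107) when the 4 arrays with the highest 3′ to middle ratio of β-actin were removed. Of the 28 chain pairs, 7 were called in the 8 controls alone, 5 after quantile normalization and 0 without those 4 arrays. The causes were not tested. All 14 probe sets were bright, so signal over background set no bound.

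With 1 array left out, calls ran from 0 to 1 at 1.5 µg/kg, 0 to 0 at 3 and at 6 µg/kg, 0 to 1 for the mean (Col6a1 by 162459_f_at, 0.48, adjusted p = 0.0442, without array 1 of 6 µg/kg; 0.0865% of all called), 0 to 0 for the trend and the F test, 0 to 2 between doses (Col5a2 and Col6a2, adjusted p = 0.0486 and 0.0411, without control 6; 0.877% of all called), 0 to 1 between control sets and 0 to 4 for chain pairs. On the 12 TCDD arrays alone they ran from 1 to 3 for the trend and 0 to 3 for 6 against 1.5 µg/kg.

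The replicate number as a block, without controls 5 to 8, called 2 between doses (Col5a1 by 101080_at and Col6a2, adjusted p = 0.0421 and 0.0266; 1.21% of all probe sets called); arrays share only a number, and 2 of 12 TCDD arrays were closest to their own number. It changed no other count of collagen calls.

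Direction turned only for differences that no test called. With controls 1 to 4 alone, and equally under the block, the values at 3 µg/kg were 0.080 (Col1a2 by 101130_at), −0.022 (Col3a1 by 98331_at), 0.0037 (Col3a1 by 161984_f_at) and −0.051 (Col5a1 by 101080_at), those at 6 µg/kg −0.079 (Col3a1 by 102990_at), −0.021 (Col6a1 by 95493_at) and −0.081 (Col6a3), and for the mean −0.12 (Col5a1 by 101080_at). With controls 5 to 8 alone, Col1a2 was at −0.11 at 1.5 µg/kg and −0.068 for the mean (101130_at) and −0.0045 at 3 µg/kg (161156_r_at), and at 6 µg/kg Col5a1 (101080_at) and Col6a2 were both at 0.14. With the 3′ to 5′ ratio as a covariate, values at 3 µg/kg were −0.011 (Col1a1 by 103709_at), 0.0053 (Col1a2 by 101130_at) and 0.079 (Col3a1 by 161984_f_at), and the mean was −0.080 (Col1a1 by 103709_at). With the lung score they were −0.016 (Col1a2 by 101130_at, 1.5 µg/kg) and 0.076 (Col3a1 by 161984_f_at, 3 µg/kg). After the 4 high-actin arrays were removed they were −0.055 (Col1a2 by 101130_at) and −0.082 (Col3a1 by 161984_f_at) at 1.5 µg/kg, −0.016 (Col1a1 by 94305_at) at 3 µg/kg, and −0.011 and −0.090 for the mean (Col1a2 by 101130_at and Col3a1 by 161984_f_at).

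With 1 array left out, Col1a1 by 103709_at ran from −0.23 to 0.021 at 1.5 µg/kg, from −0.0055 to 0.37 at 6 µg/kg and from −0.015 to 0.11 for the mean. Col1a2 by 101130_at ran from −0.071 to 0.10 at 1.5 µg/kg and from −0.15 to 0.031 at 3 µg/kg. Col3a1 ran from −0.035 to 0.22 at 3 µg/kg by 98331_at, from −0.034 to 0.12 at 6 µg/kg by 102990_at, and by 161984_f_at from −0.14 to 0.024 at 3 µg/kg, from −0.11 to 0.33 at 6 µg/kg and from −0.017 to 0.15 for the mean. Col6a2 ran from −0.089 to 0.0058 at 6 µg/kg.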
